A study of Drosophila melanogaster with 24 samples.

Results

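The transcript levels that set the selected lines of Drosophila melanogaster apart from their unselected Control lines, whichever way the flies had been selected, are described here. All 24 arrays of the series entered the comparison, 16 from selected lines and 8 from Control lines. The table held 18769 probe sets. The test was run on 11439, those whose Signal had a median no lower than 75. Signal is the array software's estimate of the abundance of a transcript, on a linear scale with no fixed unit. The difference reported throughout is the mean log2 Signal of the selected lines, with High and Low given the same weight, minus that of the Control lines, averaged over the sexes.

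The study asked which genes respond when locomotor reactivity, the movement of a fly after a mechanical disturbance, is changed by artificial selection. The High lines were bred from the most active flies scored in each generation, the Low lines from the least active and the Control lines from flies taken without regard to their score. There were 2 replicate lines of each, and all 6 came from 1 heterogeneous base population derived from wild-caught flies. The paper describes 2 starting bottles, each split into a High, a Low and a Control bottle. The main fit did not use this shared origin. RNA came from pools of 12 virgin flies aged 3 to 7 days at generation 25, with 2 female and 2 male pools per line.

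No mutant allele or chemical was involved, and the groups differ by their history of selection, which with 2 lines a group cannot be told apart from drift within lines. The comparison rests on 4 selected and only 2 Control populations. The error in the tests is the spread between the 2 samples of a line and sex, which says how well these 6 lines were measured and not how far unselected lines wander apart. Whole flies were pooled, so fewer cells of a type and less RNA per cell cannot be told apart. Genes for yolk proteins (Yp1 to Yp3) and for male accessory gland proteins (Acp98AB, Acp53C14b, Acp26Aa) separated the female from the male arrays as their labels say. Replicate arrays correlated at r = 0.969 to 0.985, and the trimmed mean Signal was 497 to 499 on every array. Median Signal over all probe sets was 93.0 to 116.8 on Selected female arrays and 99.5 to 117.5 on Control female arrays, and 143.2 to 152.6 on Selected male arrays against 146.2 to 157.7 on Control male arrays.

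Movement in the fly depends on neurons that release transmitter from synaptic vesicles, on the ion channels that shape their firing and on muscle. The daily pattern of activity is set by the circadian clock, in which Clock and Cycle switch on period, timeless, vrille, Pdp1 and clockwork orange, whose products feed back on the same loop. Cytochrome P450 enzymes and glutathione S transferases, many of them in tandem gene clusters, process foreign compounds and hormones in gut, fat body and other tissues.

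In the Selected lines 508 probe sets were higher and 894 were lower than in the Control lines at an adjusted p below 0.05 (limma), which is 4.44% and 7.82% of those tested. High and Low lay on the same side of Control for 481 of the higher and 854 of the lower probe sets, 95.2% of the 1402. Both groups differed from Control at an unadjusted p below 0.05 for 325 of the higher and 638 of the lower. High and Low were each compared with the same Control arrays, so this count is fixed by the way the contrast was made and not an independent repeat. For 91 of the higher and 216 of the lower probe sets all 4 selected line means lay beyond both Control line means in each sex. Over all probe sets tested, called or not, line means lay apart in this way for 1.18% (higher) and 2.38% (lower). Most differences were small. The median called probe set differed by 1.25-fold, 20 were at least 2-fold higher and 32 at least 2-fold lower.

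Many calls were lost when 1 of the Control lines was left out. Such a fit also has fewer arrays, so a lost call need not mean a smaller difference. Of the 1402 probe sets, 210 were called in the same direction with either Control line left out, 60 of them higher and 150 lower. With any 1 of the 6 lines left out in turn, 52 higher and 132 lower probe sets kept their call throughout. With line as a random block 48 were called higher and 87 lower. With the 6 line means as the only samples no probe set was called, while 859 had an unadjusted p below 0.05, or 7.51% of those tested.

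**Figure D1:**
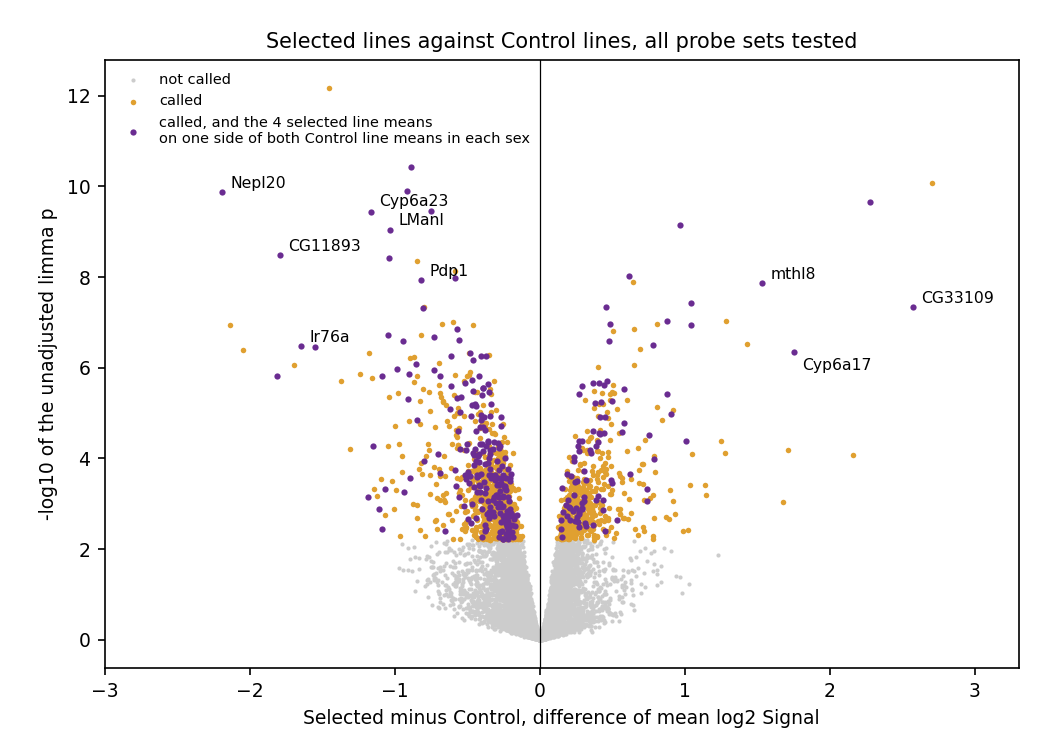
Each point is a probe set, with the Selected minus Control difference of mean log2 Signal on the horizontal axis and minus log10 of the unadjusted limma p on the vertical axis. The 894 called lower probe sets outnumber the 508 called higher, and CG33109 and Nepl20 lie far out to either side.

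The strongest rises that High and Low shared included CG33109, the receptor gene mthl8, P450 genes and genes of the gut. CG33109, a gene with no given function, had the highest difference of those named by the rule. Its Signal was 567.5 to 3505.6 (median 1355.2) on the 16 Selected arrays and 48.5 to 669.1 (median 204.25) on the 8 Control arrays. Every Selected array lay above every Control array of its own sex. The difference was 2.57 ± 0.24 (SE, adjusted p = 2.3e-05), or 5.94-fold, with 3.05 in High and 2.10 in Low.

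The gene mthl8 encodes a member of the methuselah-like family of G protein-coupled receptors. Its Signal was 139.7 to 463.7 (median 265.65) on Selected arrays and 39.5 to 124.5 (median 100.4) on Control arrays, so the groups did not overlap. The difference was 1.53 ± 0.13 (adjusted p = 8.1e-06), close to equal in High (1.60) and Low (1.47). A second probe set of mthl8 was higher by 0.90 ± 0.14 (adjusted p = 0.0008).

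Among genes of the gut, Peritrophin-15a, which encodes a chitin-binding protein of the lining of the midgut, had a Signal of 2096.2 to 5609.6 (median 3439.8) on Selected arrays and 617.9 to 3426.5 (median 1817.3) on Control arrays. The groups overlapped over all arrays, and the difference was 1.04 ± 0.10 (adjusted p = 2.2e-05). That the 4 selected line means lay above both Control line means in each sex was a condition for naming it. The maltase Mal-B2 was measured at 1618.6 to 4337.7 (median 2943.7) on Selected arrays and 1186.1 to 2130.1 (median 1826.0) on Control arrays, a difference of 0.75 ± 0.12 (adjusted p = 0.0017). Its neighbour on the chromosome, Mal-B1, moved the other way (-0.65 ± 0.13, adjusted p = 0.0067).

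Other shared rises were in igl, which encodes a calmodulin-binding protein of neurons, in the prophenoloxidase gene PPO1 and in CG16743. The Signal of igl was 694.2 to 1334.9 (median 905.5) on Selected arrays and 239.9 to 928.1 (median 501.45) on Control arrays, and within each sex all Selected arrays were above all Control arrays. The difference of igl was 0.88 ± 0.12 (adjusted p = 0.00038), and that of CG16743 was 0.78 ± 0.09 (adjusted p = 8e-05). PPO1, an enzyme of melanization, was higher by 0.79 ± 0.15 (adjusted p = 0.0037), but by 0.57 without Control line 1 (adjusted p = 0.069) and 0.56 without Low line 1 (adjusted p = 0.054).

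The strongest shared fall was in Nepl20, which encodes a protein of the neprilysin-like family of metallopeptidases. Its Signal was 24.1 to 178.2 (median 61.25) on Selected arrays and 194.2 to 401.8 (median 286.85) on Control arrays. Every Selected array lay below every Control array. The difference was -2.19 ± 0.13 (adjusted p = 3e-07), or 4.56-fold lower, and it was larger in Low (-2.78) than in High (-1.60), with an adjusted p of 0.00014 for High minus Low.

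CG11893 showed the same separation. It was measured at 259.6 to 1402.2 (median 698.25) on Selected arrays and at 1736.1 to 3241.1 (median 2403.7) on Control arrays, without overlap. The difference was -1.79 ± 0.14 (adjusted p = 3.4e-06), or 3.46-fold lower, again further from Control in Low (-2.18) than in High (-1.41, adjusted p of High minus Low 0.0047).

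Ir76a, an ionotropic receptor of olfactory neurons in the antenna, was dim on the array. Its Signal was 11.8 to 154.5 (median 58.45) on Selected arrays and 121.5 to 204.4 (median 171.35) on Control arrays. The ranges overlapped through 1 Selected array, a female array of High line 1 at 154.5. The difference was -1.65 ± 0.18 (adjusted p = 8.3e-05), with -0.96 in High and -2.34 in Low (adjusted p of High minus Low 0.00052).

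LManI, a lysosomal alpha-mannosidase, had a Signal of 141.2 to 468.3 (median 294.1) on Selected arrays and 450.9 to 789.3 (median 583.4) on Control arrays, and within each sex the groups did not overlap. The difference was -1.04 ± 0.07 (adjusted p = 1e-06), with -1.14 in High and -0.94 in Low. LManII, which lies next to it on the chromosome, was lower by 0.60 on the log2 scale (-0.60 ± 0.06, adjusted p = 4e-05). The sulfotransferase gene St3 had a Signal of 243.0 to 492.8 (median 363.55) on Selected arrays and 432.4 to 1101.2 (median 765.75) on Control arrays (-1.04 ± 0.08, adjusted p = 3.6e-06), with 1 Control line at log2 9.99 and the other at 9.04. A second probe set of St3 was at -0.39 and not called (adjusted p = 0.17).

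A further 4 genes completed the list of falls. CG14500 differed by -1.15 ± 0.20 (adjusted p = 0.0025), CG34109 by -1.04 ± 0.11 (adjusted p = 5.8e-05) and Jhbp12, named as a juvenile hormone binding protein, by -1.09 ± 0.14 (adjusted p = 0.00023). CG10919 differed by -2.23 in females and -0.14 in males, and its female Signals were dim, at 1.7 to 31.9 on Selected arrays and 30.7 to 54.2 on Control arrays. Its pooled call (-1.18 ± 0.27, adjusted p = 0.012) was lost without Control line 1 (-1.17, adjusted p = 0.082), without Control line 2 (-1.19, adjusted p = 0.063) and without High line 1 (-0.76, adjusted p = 0.14).

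Of these 20 probe sets, 18 kept their call in all 30 fits that left out 1 array or 1 line, and 16 with line as a random block. The rule for naming them required selected line means beyond both Control line means, so this was largely built in. Of all 1402 probe sets called, 13.1% kept their call in each of the 6 fits without 1 line. With line as a random block 9.63% did. High and Low were not equally far from Control in all of the 20. The High minus Low contrast was called for 8 of the 20, and the Low lines were the further from Control for 13.

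**Figure D2:**
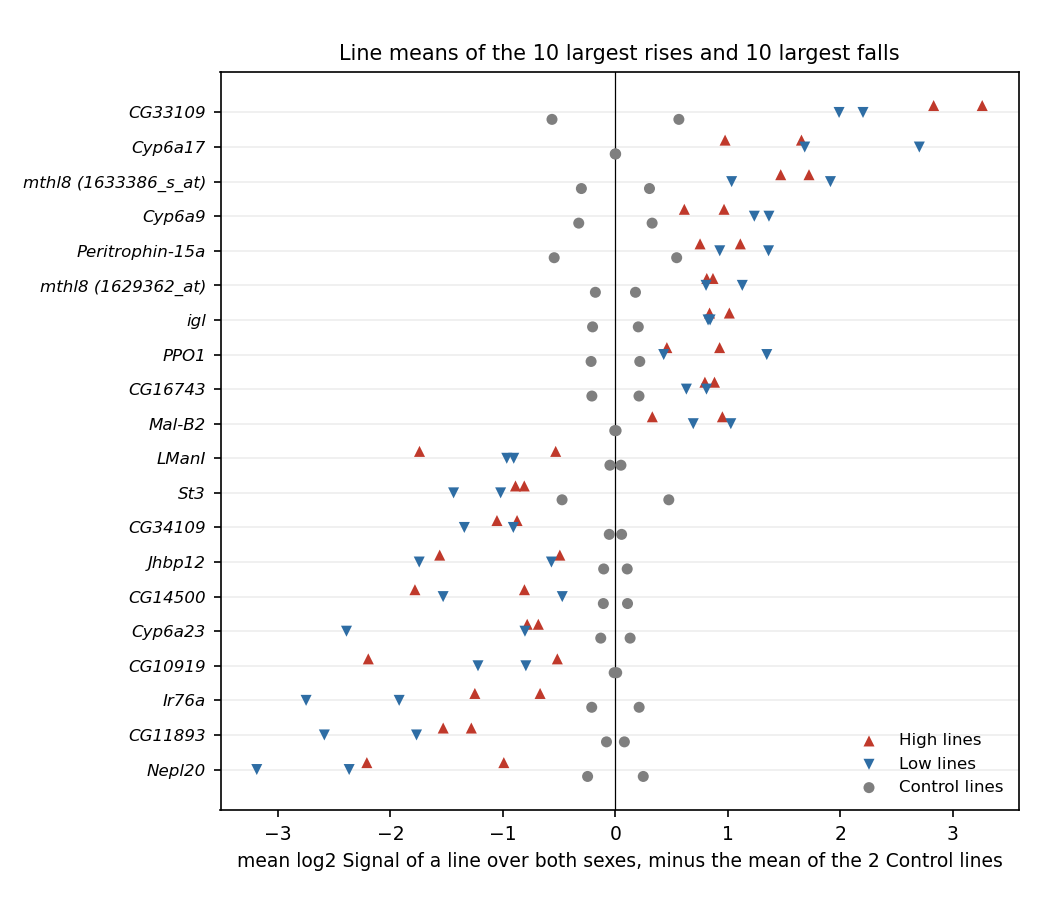
Points are the means of each line for the 10 largest rises and 10 largest falls that High and Low shared, as log2 Signal relative to the mean of the Control lines, with a colour for each group. All 4 selected line means lie beyond both Control line means for each gene, which the rule for naming them required. The Low lines are the further out for 13 of the 20.

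The cytochrome P450 genes changed in both directions. Of 67 tested, of 81 on the array, 11 were higher and 12 lower in the Selected lines, or 16.4% and 17.9%, against 4.47% and 7.56% of all 9470 genes tested. High and Low lay on the same side of Control for 19 of the P450 genes called, and the others are no shared change. The median difference of the P450 genes was -0.01, the same as that of all genes. The genes that moved most sit side by side in the Cyp6a cluster, in which Cyp6a22, Cyp6a17, Cyp6a23, Cyp6a19, Cyp6a9, Cyp6a20, Cyp6a21 and Cyp6a8 were the neighbours tested.

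Cyp6a17, known for a role in the temperature preference of flies, had a Signal of 458.5 to 2593.0 (median 999.15) on Selected arrays and 170.3 to 548.7 (median 368.55) on Control arrays. Its difference was 1.75 ± 0.20 (adjusted p = 0.0001), or 3.37-fold, with 1.31 in High and 2.19 in Low. The adjacent Cyp6a23 was opposite, at 698.4 to 3319.2 (median 2411.2) on Selected arrays and 3684.9 to 5034.5 (median 4287.1) on Control arrays. No Selected array reached the Control range of Cyp6a23, and the difference was -1.17 ± 0.08 (adjusted p = 5.4e-07), with -0.74 in High and -1.60 in Low (adjusted p of High minus Low 1.7e-05).

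Cyp6a9 rose as Cyp6a17 did, with 667.2 to 1525.5 (median 1001.2) on Selected arrays and 271.7 to 683.8 (median 512.95) on Control arrays (1.04 ± 0.11, adjusted p = 4e-05). In the same cluster Cyp6a22 was higher by 0.37 (adjusted p = 0.00037) and Cyp6a19 by 0.45 (adjusted p = 0.043). The remaining members were at -0.16 (Cyp6a20, adjusted p = 0.079), 0.23 (Cyp6a21, adjusted p = 0.067) and -0.30 (Cyp6a8, adjusted p = 0.24), none of them called. These genes are close copies of one another, so their values are uncertain to the extent that a probe set of one also binds transcripts of another, which was not tested.

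Outside the cluster Cyp4ac1 was higher by 0.69 ± 0.08 (adjusted p = 9.6e-05), but without Control line 2 its difference was 0.00 (adjusted p = 0.99). Cyp4aa1 (0.68), Cyp9b2 (0.60) and Cyp4d20 (0.50) were also higher, and Cyp12d1-d (-0.90), Cyp28d1 (-0.53) and Cyp49a1 (-0.45) lower. Cyp12d1-d varied among the Selected arrays from 72.9 to 4785.9, across the whole Control range of 655.8 to 2931.9. The P450 genes called with any 1 line left out were Cyp6a22, Cyp4d20, Cyp6a9 and Cyp6a17, which were higher, and Cyp6a23 and Cyp49a1, which were lower.

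Of 31 glutathione S transferase genes, 6 were higher and 2 lower (median 0.03), or 19.4% and 6.45% against 4.47% and 7.56% of all genes, with 2 higher without Control line 1. High and Low lay on the same side of Control for 7 of the genes called. GstO3 of the omega class was lower (-0.85 ± 0.11, adjusted p = 0.00023). Its Signal was 627.1 to 4541.1 (median 1819) on Selected arrays and 3003.2 to 3964.9 (median 3487.8) on Control arrays, with High line 1 at log2 11.96 and High line 2 at 9.88. Without High line 2 the difference was -0.33 (adjusted p = 0.053). GstE1 (0.47, adjusted p = 0.00091) and GstE11 (0.48, adjusted p = 0.0021) were higher. The call of GstE1 was lost without Control line 2 (0.30, adjusted p = 0.061) and that of GstE11 without Control line 1 (0.28, adjusted p = 0.13), and no gene of this list kept its call with each line left out in turn. UDP-glycosyltransferase genes, which attach sugars to such compounds, had 2 higher and 2 lower of 24. That is 8.33% each way, against 4.47% and 7.56% of all genes.

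Genes of synaptic vesicle release were lower in the Selected lines. Of 28 tested, 12 were lower and 0 higher, 42.9% against the 7.56% of all genes, and 25 of the 28 differences lay below 0 (median -0.19, all genes -0.01). The differences were small. The median was -0.09 in High and -0.23 in Low.

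alphaSnap, whose product takes apart the SNARE complexes that fuse vesicles, had the lowest p. Its Signal was 774.6 to 1423.7 (median 1083.1) on Selected arrays and 1211.3 to 1712.5 (median 1457.8) on Control arrays (-0.40 ± 0.06, adjusted p = 0.0004). The 4 selected line means lay below both Control line means in each sex. AP-2alpha, an adaptor of vesicle endocytosis, followed at 494.1 to 735.5 (median 627.25) on Selected arrays and 677.8 to 968.1 (median 753.25) on Control arrays (-0.33 ± 0.05, adjusted p = 0.0011).

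The other 10 genes called were Syn (-0.30), cpx (-0.28), RIC-3 (-0.26), Amph (-0.25), VAChT (-0.25), Snap25 (-0.24), Csp (-0.24), ChAT (-0.21), Rab3 (-0.20) and lap (-0.20). Among them are the SNARE protein Snap25, its partner complexin (cpx), the vesicle protein Synapsin (Syn) and the enzyme and transporter that make and load acetylcholine (ChAT and VAChT), the last pair being neighbours on the chromosome. ChAT and RIC-3 were counted in the list but do not act in vesicle release itself. With any 1 line left out, alphaSnap, AP-2alpha, cpx, Amph, Snap25 and Csp kept their call, and the list gave 8 to 11 lower genes, with 8 in the fits without Control line 1 and without Control line 2. With line as a random block 1 gene of the list was called lower, and with the 6 line means as the samples 0.

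Of 26 voltage-gated channels and their modulators 9 were lower and 0 higher (median -0.12), 34.6% against the 7.56% of all genes. High and Low lay on the same side of Control for 8 of the 9, the exception being Irk2. With line as a random block 0 were called. The genes called were Slob (-0.33), Hk (-0.28), NaCP60E (-0.27), Teh2 (-0.27), Sh (-0.26), SK (-0.26), Shaw (-0.25), sei (-0.24) and Irk2 (-0.12), most of them potassium channel subunits or their partners. SK and Irk2 were counted in the list but are potassium channels not gated by voltage. Sh encodes the Shaker channel and Hk its beta subunit. The list gave 3 lower genes without Control line 1 and 3 without High line 2, and 1 of the 9, NaCP60E, kept its call with each line left out. The difference of Slob was -0.09 without Control line 2 (adjusted p = 0.62) and that of Sh -0.07 without Control line 1 (adjusted p = 0.67). Sh had a further 3 probe sets, at -0.44 (adjusted p = 0.00038, called with each line left out), -0.38 (adjusted p = 0.0035) and 0.05 (adjusted p = 0.88).

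Neuropeptide and receptor genes had 5 lower and 0 higher of 29 (median -0.11), or 17.2% and 0% against 7.56% and 4.47% of all genes. The count of lower genes was 1 without Control line 1 and 0 with line as a random block. Nplp1, a neuropeptide precursor, had a Signal of 620.7 to 1112.4 (median 911.5) on Selected arrays and 908.3 to 1396.3 (median 1089.5) on Control arrays (-0.31 ± 0.05, adjusted p = 0.0023), with all 4 selected line means below both Control line means in each sex. ITP (-0.22), Dh44 (-0.26), Pdfr (-0.44) and TkR99D (-0.45) were the others, and TkR99D was on opposite sides of Control in High and Low. Of 13 genes of monoamine synthesis and reception, 1 was lower and 0 higher, or 7.69% and 0% against 7.56% and 4.47% of all genes. The lower gene was 5-HT1A (-0.50 ± 0.10, adjusted p = 0.0046), but at -0.35 without Control line 2 its adjusted p was 0.096. Of 18 calcium handling genes 3 were lower and 0 higher, or 16.7% and 0% against 7.56% and 4.47% of all genes. Of these Cbp53E, a calcium-binding protein, kept its call with each line left out. It was at 884.9 to 1998.2 (median 1317.3) on Selected arrays and 1545.2 to 2159.1 (median 1694.5) on Control arrays (-0.41 ± 0.07, adjusted p = 0.0012).

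A general marker of neurons moved with these lists. elav, which every neuron expresses, had a Signal of 384.2 to 621.4 (median 480.4) on Selected arrays and 569.1 to 693.8 (median 615.9) on Control arrays, a difference of -0.35 ± 0.05 (adjusted p = 0.00038). It was -0.41 in females and -0.30 in males. Of the other neuronal markers brp differed by -0.35 without passing the test (adjusted p = 0.28) and Syt1 was not among the probe sets tested. The part of neuronal content in the lower synaptic and channel genes was not tested.

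The eye gave a mixed picture. Of 21 phototransduction genes 3 were higher and 5 lower (median -0.13), or 14.3% and 23.8% against 4.47% and 7.56% of all genes, and without Control line 2 the count of lower genes was 0. The arrestin gene Arr2, an eye marker, differed by -0.01 (adjusted p = 0.91). Pdh, a dehydrogenase of the visual pigment cycle, was higher (0.38 ± 0.07, adjusted p = 0.0025), and the light-activated channel genes trpl (-0.38 ± 0.07, adjusted p = 0.0046) and trp (-0.21) were lower. Without Control line 2 trpl differed by -0.29 (adjusted p = 0.073).

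**Figure D3:**
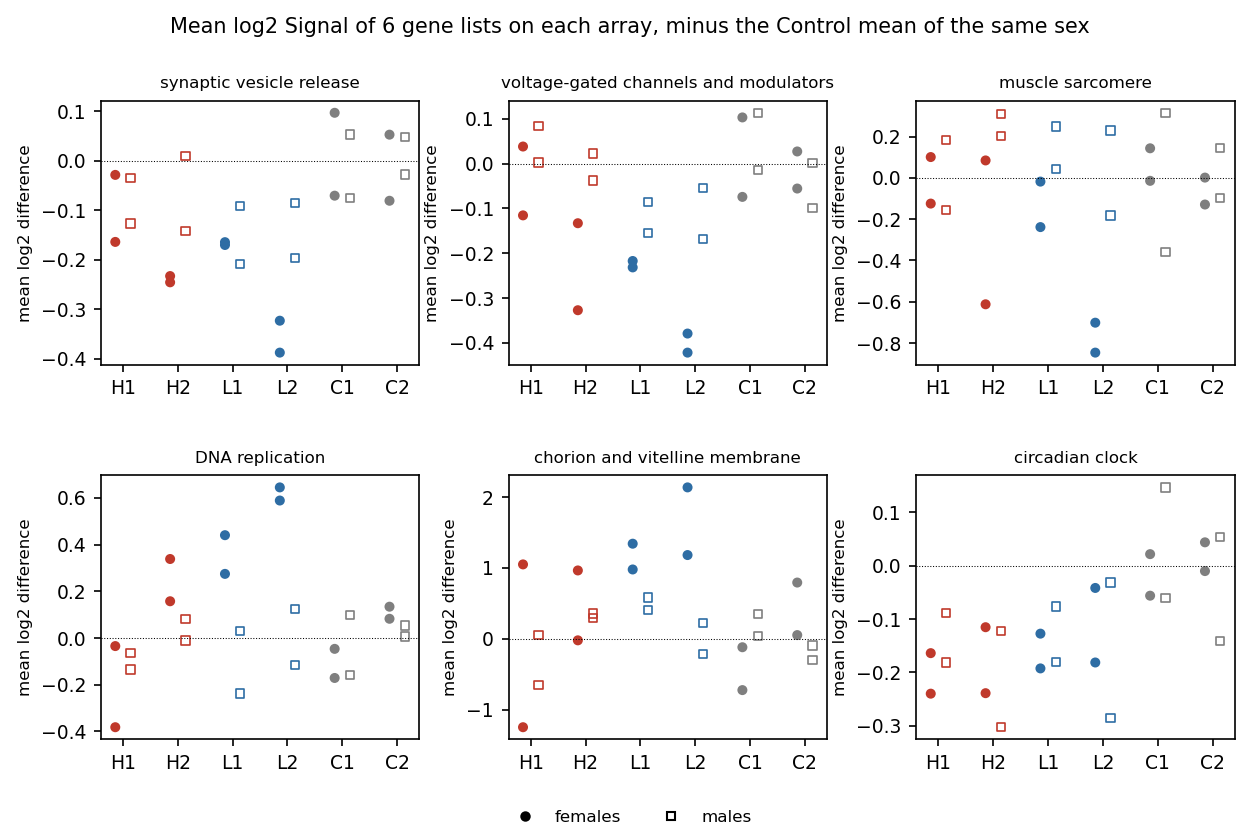
Each point is an array (circles females, squares males), placed by line (H for High, L for Low, C for Control), with the mean log2 Signal of a gene list relative to the Control mean of the same sex on the vertical axis. Synaptic vesicle genes lie at -0.39 to -0.03 on Selected female arrays against -0.08 to 0.10 on Control female arrays, with the lowest values in Low line 2.

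The female values of these lists ran alongside other tissues. Averaged over the list, synaptic vesicle genes were at -0.10 and -0.24 in the females of High lines 1 and 2, and at -0.17 and -0.35 in those of Low lines 1 and 2, relative to Control females. Muscle sarcomere genes were at -0.77 in the females of Low line 2, and DNA replication genes, which are strongly expressed in the ovary, were at 0.62 there and at -0.21 in High line 1. The part of ovary and muscle content in the female differences was not tested. In males the synaptic vesicle list was at -0.21 to 0.01 on Selected arrays and -0.07 to 0.05 on Control arrays, an overlap. In males alone 0 of its genes were called, against 11 in females alone. Of all genes tested 1.5% were lower in males and 6.29% in females, so fewer calls in males were general. The median male difference of the list was -0.13, against -0.03 for all genes. Without Low line 2 the count of lower synaptic vesicle genes was 9.

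Of 17 circadian clock genes tested, 5 were lower and 1 higher (median -0.11), or 29.4% and 5.88% against 7.56% and 4.47% of all genes. The count of lower genes was 1 without Control line 1, the gene Pdp1, and 1 with line as a random block. Pdp1, a transcription factor of the clock, had a Signal of 301.6 to 828.3 (median 594.8) on Selected arrays and 796.2 to 1055.9 (median 951.35) on Control arrays. Within each sex all Selected arrays lay below all Control arrays. The difference was -0.82 ± 0.07 (adjusted p = 7.8e-06), larger in High (-1.17) than in Low (-0.47), with an adjusted p of 4.3e-05 for High minus Low.

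The repressor vri was measured at 450.3 to 988.8 (median 683.2) on Selected arrays and 857.2 to 1301.4 (median 981.05) on Control arrays, a difference of -0.58 ± 0.13 (adjusted p = 0.0088), near equal in High (-0.55) and Low (-0.60). tim, the partner of period, was at 370.9 to 732.1 (median 564.2) on Selected arrays and 608.9 to 812.8 (median 720.2) on Control arrays (-0.35 ± 0.08, adjusted p = 0.012). The groups overlapped for both genes, with the highest Selected array above the Control median. A second probe set of tim differed by -0.59 (adjusted p = 0.0056). cwo, a further repressor, differed by -0.46 ± 0.09 (adjusted p = 0.0037, with a second probe set at -0.16 and an adjusted p of 0.54) and Pdfr, the receptor of the clock neuropeptide PDF, by -0.44 ± 0.12 (adjusted p = 0.024).

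Clk was the clock gene that was higher (0.31 ± 0.04, adjusted p = 0.00048), with 0.50 in High and 0.12 in Low. Its Signal was 234.3 to 1132.4 on Selected arrays and 215.0 to 596.6 on Control arrays, and High line 1 stood above the rest at log2 9.44, against 8.48 to 8.75 in the other selected lines and 8.39 and 8.61 in the Control lines. Without High line 1 the difference of Clk was 0.09 (adjusted p = 0.3), and without Control line 1 0.20 (adjusted p = 0.062). The falls of vri (-0.53, adjusted p = 0.074), cwo (-0.15, adjusted p = 0.44) and tim (-0.28, adjusted p = 0.17) lost their call without Control line 1, and Pdfr without Control line 1 (-0.53, adjusted p = 0.071), Control line 2 (-0.36, adjusted p = 0.18) or High line 2 (-0.36, adjusted p = 0.078). Pdp1 kept its call with each line left out. per was at -0.29 (adjusted p = 0.14), cyc at 0.16 (adjusted p = 0.099), cry at 0.15 (adjusted p = 0.21) and Pdf at -0.05 (adjusted p = 0.89), none of them called. The paper states that flies were collected at the time of day of the behavioral assays, which spanned several morning hours. It does not give the hour for each line. A change of level, a shift in the phase of the rhythm and a difference in collection hour therefore cannot be told apart.

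**Figure D4:**
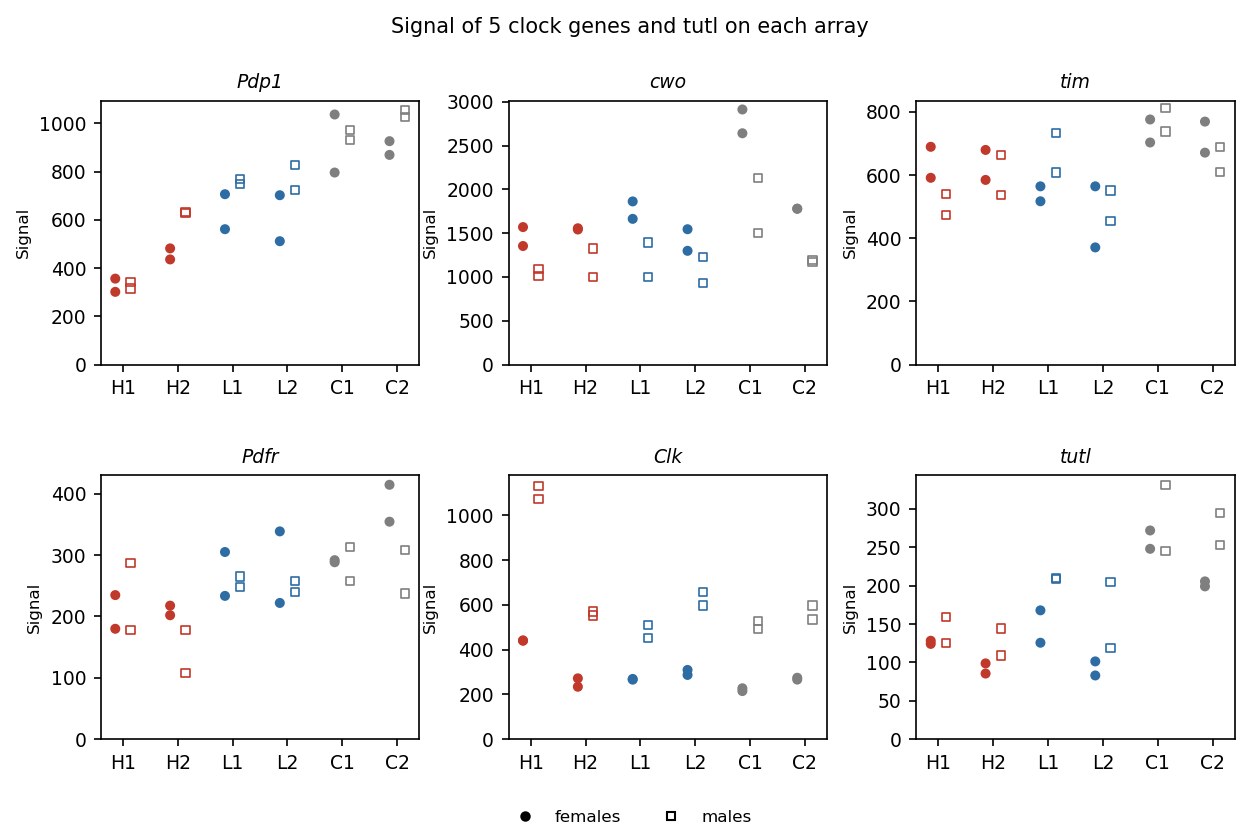
Signal on a linear axis for 5 clock genes and tutl, 1 point per array (circles females, squares males), by line, with High (H), Low (L) and Control (C) lines 1 and 2 from left to right. Within each sex, Pdp1 and tutl show no overlap between the Selected and the Control arrays, and for Clk High line 1 stands above the other lines.

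A list of 9 of the genes that the study named for their part in locomotion was tested here, of which 3 were lower and 1 higher. That is 33.3% and 11.1%, against 7.56% and 4.47% of all genes. The study named many more such genes, so these are not shares of all its locomotor genes. Both that list and the next were drawn from genes that the study reported on these same samples. Neither the share called nor the direction is therefore independent evidence. tutl, an immunoglobulin family protein needed for normal larval movement, had a Signal of 83 to 209.7 (median 125.3) on Selected arrays and 199.0 to 331.1 (median 250.4) on Control arrays. Within each sex the groups did not overlap, and the difference was -0.94 ± 0.10 (adjusted p = 7e-05), with -1.08 in High and -0.81 in Low. A second probe set of tutl differed by -0.52 ± 0.15 (adjusted p = 0.037). The other calls were tim, Sh and Clk, given above.

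Of 10 candidate genes that the study went on to test with P-element insertions, 5 were lower and 0 higher. That is 50% and 0%, against 7.56% and 4.47% of all genes. The study chose these genes because they differed between these same lines, so a high share of calls was built in. Pdcd4 differed by -0.45 ± 0.06 (adjusted p = 0.00055), the splicing regulator mbl by -0.42 ± 0.06 (adjusted p = 0.00073) and the membrane-bending protein Amph by -0.25 ± 0.04 (adjusted p = 0.0011). The synaptic chaperone Csp differed by -0.24 ± 0.04 (adjusted p = 0.003) and the repressor ken by -0.27 ± 0.05 (adjusted p = 0.0043). High and Low lay on the same side of Control for all 5, but not equally far for Amph and ken. The Signal of Amph was 2168.7 to 2905.3 on High arrays and 1695.5 to 2382.6 on Low arrays, against 2512.6 to 2988.9 on Control arrays. For ken, High females were at 796.9 to 985.7 and Low females at 1170.1 to 1329.5, with the lowest Control female at 1232.4. In males ken was at 279.8 to 316.4 in High and 309.8 to 411.1 in Low, with the lowest Control at 332.2. Without Control line 1 Pdcd4 was at -0.29 (adjusted p = 0.065), and without Control line 2 ken was at -0.23 (adjusted p = 0.051). mbl had a further 5 probe sets, of which 4 were not called, at -0.17 to -0.06, and 1 differed by -0.54 (adjusted p = 0.036), with -1.17 in High and 0.09 in Low. The remaining genes, CG31145 (-0.21), cdi (-0.15), trn (-0.05), CG33523 (-0.04) and neb (0.19), were not called.

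Digestive enzymes were split. Of 43 tested 3 were higher and 8 lower (median -0.02), or 6.98% and 18.6% against 4.47% and 7.56% of all genes. Sugar-releasing enzymes changed in both directions, with Mal-A8 at 990.7 to 2186.3 (median 1455.2) on Selected arrays and 2068.5 to 3772.7 (median 2694.4) on Control arrays (-0.86 ± 0.10, adjusted p = 0.00015) beside the fall of LManI and the rise of Mal-B2. Trypsin genes (etaTry -0.31, zetaTry -0.34, lambdaTry -0.21, iotaTry -0.20) were lower, and the serine proteases Jon99Fi (0.78) and Jon44E (0.66) higher. The abundant gut genes alphaTry (0.12, adjusted p = 0.17) and Jon65Aiii (0.15, adjusted p = 0.16), used as markers of the gut, were not called. Mal-B2, LManI, LManII and Mal-A8 kept their calls with each line left out.

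Immunity and defense genes had 6 higher and 1 lower of 35, with a median of 0.01, or 17.1% and 2.86% against 4.47% and 7.56% of all genes. Without Control line 1 the count of higher genes was 1. TotC, a secreted stress protein, was higher by 1.71 ± 0.31 (adjusted p = 0.0029) and the antibacterial peptide gene DptB by 1.68 ± 0.40 (adjusted p = 0.014). Both varied widely, with TotC at 279.2 to 6572.5 on Selected arrays and 154.0 to 971.6 on Control arrays, and DptB at 115.1 to 8625.3 on Selected arrays and 122.1 to 1357.3 on Control arrays. TotC was at 1.01 without Control line 1 (adjusted p = 0.17) and at 1.06 without High line 1 (adjusted p = 0.073). lectin-24A (0.80 ± 0.16, adjusted p = 0.006) was at 1.66 in High and -0.07 in Low, and turned to -0.14 without Control line 1 (adjusted p = 0.73). PPO2 was higher by 0.63 (adjusted p = 0.021), as PPO1 was. No gene of this list kept its call with each line left out.

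Lipid genes had 6 higher and 2 lower of 37 (median 0.02), or 16.2% and 5.41% against 4.47% and 7.56% of all genes. Acox57D-p, a peroxisomal acyl-CoA oxidase, had a Signal of 587.3 to 993.9 (median 775.25) on Selected arrays and 499.9 to 630.6 (median 567) on Control arrays. Within each sex the groups did not overlap, and the difference of 0.46 ± 0.06 (adjusted p = 0.00027) was the same in High and Low (0.46 each). Acox57D-d was also higher (0.33, adjusted p = 0.016). Desat2, a desaturase of cuticular hydrocarbon synthesis, differed by -0.99 ± 0.22 (adjusted p = 0.0098), but this rested on Control line 2, whose mean was log2 8.98 against 6.18 in Control line 1, and without it the difference was 0.40 (adjusted p = 0.46).

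Among secreted and cuticle proteins, the odorant-binding protein gene Obp49a was higher (0.58 ± 0.08, adjusted p = 0.00035), at 439.6 to 1516.5 (median 925.1) on Selected arrays and 457.9 to 840.7 (median 580.65) on Control arrays. Its list had 3 higher and 1 lower of 29 (10.3% and 3.45%, against 4.47% and 7.56% of all genes). For 3 of the genes called, High and Low lay on the same side of Control. Obp56a was lower (-0.45, adjusted p = 0.0029) but at -0.03 without Control line 1 (adjusted p = 0.91). Cuticle protein genes had 2 higher and 2 lower of 32, or 6.25% each way, near the shares of all genes. Cpr51A (0.41 ± 0.07, adjusted p = 0.0014) kept its call with each line left out, and Cpr66D (-0.69 ± 0.14, adjusted p = 0.0067) was at -0.05 without Control line 1 (adjusted p = 0.91).

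The housekeeping lists (proteasome, ribosomal protein and respiratory chain genes) had small median differences. Proteasome subunit genes had 4 higher and 0 lower of 26, with 24 differences above 0 and a median of 0.09 (15.4% higher against 4.47% of all genes), the largest call being Prosalpha5 at 0.19 ± 0.05 (adjusted p = 0.014, and 0.17 without Control line 1). Ribosomal protein genes had 1 higher and 1 lower of 41, or 2.44% each way, with 33 differences above 0 and a median of 0.10. Respiratory chain genes had 0 higher and 1 lower of 77 (median 0.01), or 0% and 1.3%. Of all genes 4.47% were higher and 7.56% lower. High and Low lay on the same side of Control for 1 of the ribosomal protein genes called. Of 24 muscle sarcomere genes 20 differed by less than 0, with a median of -0.32 in females and 0.12 in males. Of this list 4.17% were called lower and 0% higher, against 7.56% and 4.47% of all genes. The call was the titin-like sls (-0.35 ± 0.07, adjusted p = 0.0065), with all 4 selected line means below both Control line means in each sex. The other 2 probe sets of sls were at -0.35 (adjusted p = 0.0054) and -0.25 (adjusted p = 0.11). pum, a translational repressor that acts in germ cells and neurons, was the call among 31 germ plasm and piRNA genes (-0.38 ± 0.06, adjusted p = 0.0014), with a second probe set at 0.08 (adjusted p = 0.39). That list had 3.23% lower and 0% higher, against 7.56% and 4.47% of all genes. Of 17 insulin signalling genes 1 was higher and 2 lower, or 5.88% and 11.8% against 4.47% and 7.56% of all genes. The higher gene was ImpL2, a secreted inhibitor of insulin-like peptides, at 0.39 ± 0.07 (adjusted p = 0.0029). ImpL2 was at 0.76 in High and 0.03 in Low, and at 0.26 without Control line 1 (adjusted p = 0.15).

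**Figure D5:**
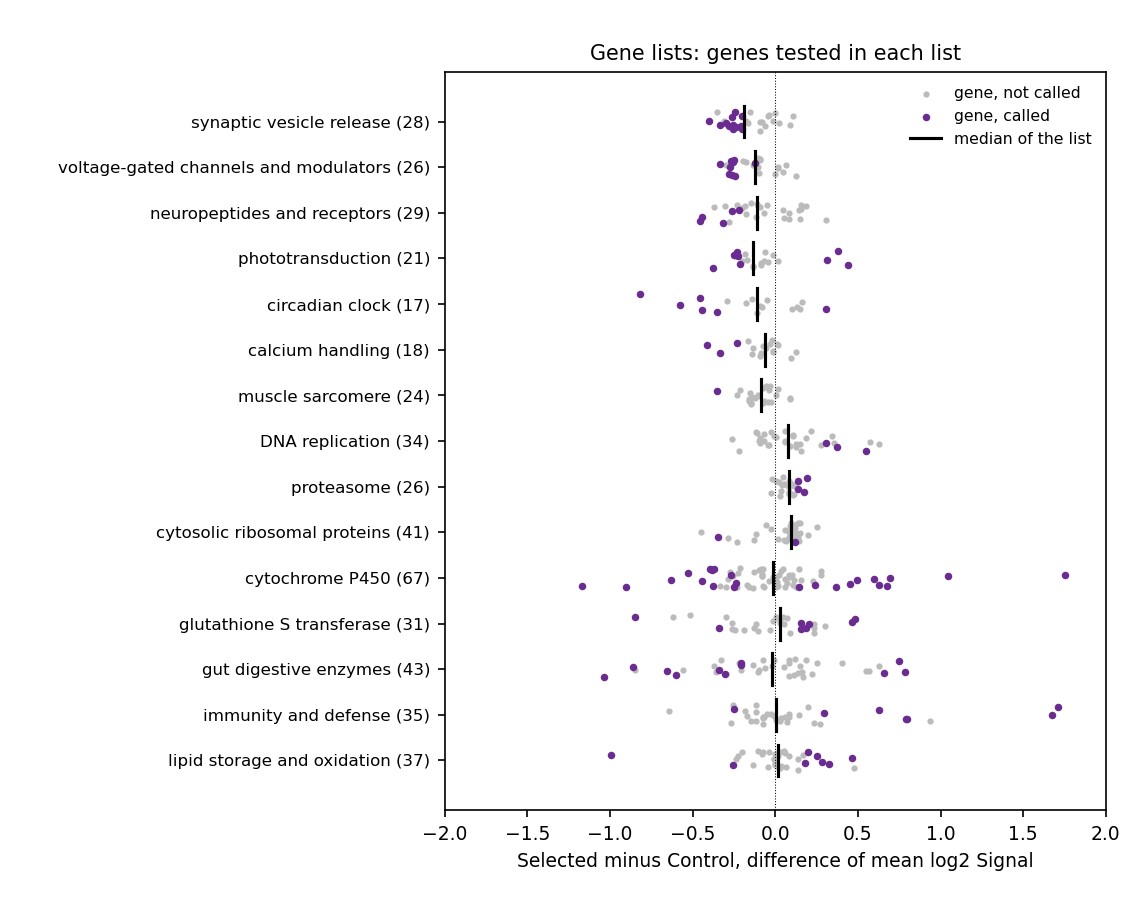
Each point is a gene of 1 of 15 lists, with its Selected minus Control difference of log2 Signal on the horizontal axis, purple where called, and a bar at the median of the list. Synaptic vesicle genes have 12 calls below 0 and none above, while the P450 genes have 11 above and 12 below.

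More genes were called in females than in males. In females 379 genes were higher and 596 lower in the Selected lines, 4.0% and 6.29% of the genes tested, and in males 109 were higher and 142 lower, 1.15% and 1.5%. Of the 1402 probe sets called over both sexes, 97.4% had the same sign in females and in males. They were called on the average of the 2 sexes, so this share is largely fixed by the contrast and shows no independent agreement. The difference between the sexes was itself called for 28 probe sets, 0.245% of those tested, with 21 more positive and 7 more negative in females.

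Of these 28, 12 had female medians below a Signal of 75 in both Selected and Control flies, where a change is measured on dim probe sets. Among the 24 with 1 gene symbol, eIF3f2 (0.93 in females and -0.13 in males) and CG12470 (1.08 in females and -0.06 in males) had the lowest p. The female Signals of CG12470 were 150.2 and 146.0 in Low line 1, 1.4 to 2.2 in the other selected lines and 1.8 to 3.8 in the Control lines, so Low line 1 alone lay above the Control lines. Rsph4a differed by -3.82 in females and -0.45 in males, and its pooled difference of -2.14 was -0.12 without Control line 1 (adjusted p = 0.86). tkv, a receptor of the BMP pathway, was at 1.18 in females and -0.48 in males, while a second probe set of tkv was at -0.25 in females (adjusted p = 0.041). CG13784 was at 0.28 in females and -1.17 in males.

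The called genes were spread over the genome. On the 5 large chromosome arms 3.23% to 5.2% of the genes tested were higher and 6.87% to 8.3% lower. On chromosome 4, 1 of 59 was higher and 11 lower. Of 1135 called genes placed on an arm, 169 (14.9%) had a neighbouring tested gene called in the same direction. There were 6 runs of at least 3 such neighbours. How many such neighbours and runs the call rates alone would give was not worked out, so these counts are description only. The longest was Shaw, CG43707, bowl and CG31960, all lower, and others held ChT, ChAT and VAChT, the channel gene Sh with CG12672 and CG6867, and sls with zormin and CG15822, all lower.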

How the data were processed

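Whole-fly RNA was hybridized to Affymetrix Drosophila GeneChip 2.0 arrays. The authors deposited 1 table per array of Signal intensity from Microarray Suite 5.0, which weighs the brightness of matched against mismatched probe pairs and scales each array to a common level. The deposited intensity was used on the log2 scale with no further normalization, so differences between arrays in background or in RNA content remain in it. Precision is limited by how many arrays there are.

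Probe sets whose median Signal was below 75 were left out. Following the methods' terms of line, sex and their interaction, limma 3.58.1 (R 4.3.3; lmFit, eBayes) was fitted to 12 line-by-sex means with 12 residual degrees of freedom. P-values were adjusted by Benjamini-Hochberg over all probe sets tested and called below 0.05. The script was tested on simulated data.

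Probe sets were named from the platform annotation, updated through the RefSeq gene table (Release 6 plus ISO1 MT), which also gave neighbours. Of 18769 probe sets, 13647 had 1 symbol, 402 had several and were not named, and 4720 had none. A gene was represented in lists by its probe set with the highest mean Signal. The 31 lists and the comparison itself were chosen with earlier results of these data known, and no set test was run.

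The text names the 10 largest rises and falls among probe sets called, with High and Low on 1 side of Control at an unadjusted p below 0.05 each and all selected line means beyond both Control line means in each sex, ranked with means floored at 75. It also names up to 3 called genes per list, the P-element candidates and the 5 smallest p for a difference between the sexes. Others were named from the full lists after their values were seen.

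The alternatives were quantile normalization, log2(Signal + 50), the linear Signal, median centring, other filters and thresholds, a replicate block, group and sex alone, line as a random block, line means, and each array or line left out. Replicate numbers did not pair the samples. The tables were processed with Python 3.11.15, pandas 2.3.3 and NumPy 2.4.6.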

Additional observations from a re-analysis of the deposited data

Results flagged for a closer look

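Within groups of 4 arrays of 1 selection group and sex, 20 of 594 tests on named probe sets found an array whose gap to the others exceeded Dixon's critical value, where chance gives about 1 in 20. Among Selected arrays the Signal of CG14500 was 115.3 and that of Acp95EF 846.6 and of Mal-A8 1222.9 in High line 2 male replicate 1, and CG31145 was at 1405.8 in High line 2 male replicate 2. Mal-B2 was at 4337.7 and dj at 3.4 in High line 1 female replicate 2, and cwo at 1353.4 in High line 1 female replicate 1. Ir76a was at 74.0 in Low line 2 male replicate 1, tutl at 118.4 in Low line 2 male replicate 2, dj at 1550.0 in Low line 1 male replicate 2 and Acp95EF at 206.4 in Low line 1 female replicate 2.

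Among Control arrays, line 1 female replicate 2 stood apart for Mal-B2 (1661.8), mbl (382.8), RpL34a (6135.8) and Csp (2486.3), and line 1 female replicate 1 for CG11893 (2835.6) and Acox57D-p (562.0). LManII was at 3009.0 in line 1 male replicate 1, CG34109 at 134.0 in line 2 male replicate 2 and Hsc70-2 at 7.0 in line 2 female replicate 1.

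The Selected minus Control difference of 5 named genes differed between the sexes in a limma test of the difference itself, with female minus male values of 1.05 for eIF3f2, 1.14 for CG12470, -3.37 for Rsph4a, 1.67 for tkv and 1.45 for CG13784.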

How the results depend on the processing

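Fewer probe sets were called when differences between lines of a group entered the error. The counts higher in Selected and lower in Selected, 508 and 894, were 202 and 473 with group and sex as the only terms, 48 and 87 with line as a random block, 0 and 0 with 6 line means (859 at an unadjusted p below 0.05) and 0 and 0 with the line number as a block (919), all by limma. Without a filter they were 323 and 592, at an adjusted p below 0.01 185 and 380, below 0.001 56 and 114, and 798 were higher and 1016 lower by the methods' analysis of the linear Signal. With a replicate block they were 471 and 837. The counts with High and Low both above Control and both below Control (481 and 854) were 196 and 462, 47 and 86, 0 and 0, 0 and 0, 303 and 567, 175 and 366, 54 and 107 in the same order, and 729 higher by the linear Signal. Synaptic vesicle release genes lower (12) were 1 with line as a random block, 0 with line means and 1 below 0.001. Voltage-gated channels and modulators genes lower (9) were 4 after quantile normalization, 3 without a filter, 2 with group and sex alone, 0 with line as a random block or line means, 2 below 0.01 and 0 below 0.001. In males 273 were lower with log2(Signal + 50) and 221 higher after median centring, which gave 19 more negative differences in females than in males.

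Leaving out 1 array or line gave 278 to 510 higher and 500 to 914 lower probe sets, the lowest without Control line 1, and 590 lower without Control line 2 male replicate 1. Both above Control numbered 270 to 483, both below Control 486 to 865, synaptic genes lower 8 to 13 and channel genes lower 3 to 9.

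Of 93 named probe sets called, 36 were called in all 30 such fits and 27 with line as a random block. Part of the 93 were named by a rule that required line means apart, which favours keeping a call. Directions reversed on the linear Signal for Hsc70-2 (-14.46), Rpt3R (-9.375), Mst84Dc (109.0), eIF3f2 (-5.394) and CG12470 (-52.86), in Signal units. With 1 array or line left out, values ran from -0.11 (without Control line 1) to 1.21 for Psf1, from -0.14 (without Control line 1) to 1.73 for lectin-24A, from -0.48 to 0.047 (without Control line 1) for sima, from -0.10 (without Control line 1) to 0.91 for eIF3f2, from -2.39 to 0.40 (without Control line 2) for Desat2, from -0.71 to 0.015 (without Low line 1) for RpL27 and from -0.28 (without Low line 1) to 1.31 for CG12470. The causes were not tested. Replicate numbers did not pair the samples (deviation correlations -0.257 to 0.256). The number of lines, 2 of them Control, limits every count, and dim probe sets limit the smallest Signals.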

Other observations

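A set of genes met the test of Selected against Control while High and Low lay on opposite sides of Control, and these are no shared change. There were 67 such probe sets. TkR99D, a tachykinin receptor, was at 0.63 in High and -1.54 in Low, with mean log2 Signals of 9.11 and 7.71 for the High lines, 6.02 and 6.45 for the Low lines, and 9.40 and 6.15 for the Control lines. GstE5 was at 0.24 in High and -0.92 in Low, CG14642 at 0.48 in High and -2.39 in Low, CG10725 at 1.76 in High and -0.34 in Low, and CG2772 at -1.89 in High and 0.36 in Low. Arpc1, a subunit of the actin-branching Arp2/3 complex, was at -0.81 in High and 0.11 in Low. They were chosen after their values were seen.

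Some differences as large as those ranked did not meet the rule for naming. CG30083 was higher by 2.70 ± 0.16 (limma, adjusted p = 3e-07), with 3.16 in High and 2.24 in Low, but its line means overlapped in at least 1 sex. CG6283 differed by -2.05, with -3.22 in High and -0.87 in Low. CG18179 differed by 2.16, with 0.79 in High and 3.52 in Low. Tsp39D, a tetraspanin, was at -0.42 in High and -2.69 in Low, and a probe set of smp-30 at -3.19 in High and -0.21 in Low. These too were chosen after their values were seen.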
